A study of Mus musculus with 6 samples.

Results

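The genes described here are 10 members of the mouse death receptor pathway, chosen by gene symbol from the 18437 genes of the deposited table. They comprise 3 ligands (Tnf, Fasl and Tnfsf10), 4 receptors (Tnfrsf1a, Tnfrsf1b, Fas and Tnfrsf10b) and 3 intracellular effectors (Casp8, Ripk3 and Mlkl). All 10 were found in the table, and all 10 passed the filter on low values described below. They were measured by bulk RNA-seq in 3 tongue tumours grown from 4MOSC1 cells overexpressing LIGHT and 3 grown from 4MOSC1 control cells. 4MOSC1 is a mouse oral squamous cell carcinoma line, and the cells of both groups were placed orthotopically in the tongue of C57BL/6 mice. LIGHT is the TNF superfamily ligand encoded by Tnfsf14. The labels used here do not state the vector, the number of clones, the age of the mice, the interval from injection to sampling or whether the control line carried an empty vector. Which animal gave which library is not stated, and the p-values refer to the spread among these samples only, and that spread may be technical.

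Death receptors are cell surface proteins of the TNF receptor superfamily whose cytoplasmic death domain recruits adaptors when a trimeric ligand binds. Fas and the TRAIL receptor assemble a complex with FADD and caspase-8 that starts apoptosis. TNF receptor 1 first builds a ubiquitin-dependent complex that activates NF-kB and can turn to caspase-8-dependent apoptosis. Where caspase-8 is inactive, it can turn to necroptosis, in which RIPK3 phosphorylates the pore-forming pseudokinase MLKL. In squamous epithelium and its tumours these receptors sit on keratinocytes and on infiltrating leukocytes, while Fas ligand is known mainly from activated T and natural killer cells and TNF from macrophages and T cells.

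The values are TPM, a share of transcripts corrected for gene length, so levels may be compared between genes, but sequencing depth is unknown. Differences are given as LIGHT minus control on the log2(TPM + 1) scale, which understates the change of low genes. A gene was called when limma's Benjamini-Hochberg adjusted p over all 13167 genes tested was under 0.05. The tested genes reached 1 TPM in at least 3 libraries. The overexpressed gene Tnfsf14 was at 26.2, 25.9 and 23.9 TPM in the LIGHT tumours and at 0.66, 0.53 and 0.79 TPM in the control tumours. Of 10 keratinocyte and tumour cell markers 1 was called, Krt6a as lower (log2 difference -0.62, limma adjusted p = 0.0406), while Krt5 was not (0.01, limma adjusted p = 0.948). Their summed level was 18530 to 26286 TPM in LIGHT tumours and 26345 to 30766 TPM in control tumours, so the groups nearly touched. Most of this sum was Krt14, Krt6a, Krt5 and Krt17. By their means Krt14, Krt6a, Trp63, Dsp and Dsg3 were lower in LIGHT tumours, and Krt5, Krt17, Epcam, Cdh1 and Itgb4 higher. Epcam was higher in every LIGHT library than in any control library (log2 difference 0.28, limma adjusted p = 0.0558). Whether tumour cell content differed was not tested. Among the other cell types, the summed T cell, macrophage and natural killer levels were higher in every LIGHT library than in any control library. The neutrophil, fibroblast, endothelial, skeletal muscle and red blood cell sums overlapped between the groups. No marker of these overlapping lists was called. The summed level of 10 T cell markers was 269.65 to 322.8 TPM in LIGHT tumours and 72.04 to 174.85 TPM in control tumours, with 9 of 10 called higher. That of 14 macrophage and monocyte markers was 1497 to 1966 TPM in LIGHT tumours and 899.1 to 1005 TPM in control tumours, with 7 of 14 called higher, and no marker of either list was at 0 in any library. The natural killer list summed to 55.8 to 61.5 TPM in LIGHT and 13.3 to 33.3 TPM in control tumours, with 4 of 5 tested markers called higher. One of the 4, Ncr1, was over 1 TPM in LIGHT libraries alone, which fixed its direction. The tested marker not called, Eomes, was lower by its means (log2 difference -0.20, limma adjusted p = 0.476). Most of the sum was Klrd1 (mean 39.1 TPM in LIGHT and 12.6 TPM in control tumours) and Klrk1 (11.35 and 4.49 TPM). Among the control libraries Klrd1 was highest in replicate 2, as was the T cell marker Cd8a. Whether natural killer cell content differed was not tested. In bulk tissue, fewer cells of a type and less RNA per cell cannot be told apart.

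Fas, Tnfsf10 and Tnfrsf1b had the largest called differences among the members, and all 3 are on different chromosomes. The 250 bases before the annotated start of 4 members are shown because 3 of them held matches to a transcription factor motif and the remaining one, Tnfsf10, had the largest difference. The sequences are from the RefSeq promoter table for GRCm38.p6, which held 9 of the 10 members, and are given 5′ to 3′ on the strand of the gene. Capitals mark matches to the gamma activated sequence TTCNNNGAA, known from interferon gamma targets, or to the core of the interferon-stimulated response element GAAANNGAA, searched on both strands. The Tnfsf10 stretch is chr3:27316827-27317076 on the plus strand, that of Fas chr19:34290409-34290658 on the plus strand, that of Tnfrsf1b chr4:145246871-145247120 on the minus strand and that of Tnfrsf1a chr6:125349473-125349722 on the plus strand. The last bases of the Fas stretch lie inside the gene span given below, which begins at 34290647. Positions in Fas are counted from the start in the promoter table.
Tnfsf10: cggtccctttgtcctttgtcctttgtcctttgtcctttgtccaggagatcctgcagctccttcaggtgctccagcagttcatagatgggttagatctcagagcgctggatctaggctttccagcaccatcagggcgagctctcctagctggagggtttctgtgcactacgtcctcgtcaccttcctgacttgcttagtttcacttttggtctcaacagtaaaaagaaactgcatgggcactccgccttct
Fas: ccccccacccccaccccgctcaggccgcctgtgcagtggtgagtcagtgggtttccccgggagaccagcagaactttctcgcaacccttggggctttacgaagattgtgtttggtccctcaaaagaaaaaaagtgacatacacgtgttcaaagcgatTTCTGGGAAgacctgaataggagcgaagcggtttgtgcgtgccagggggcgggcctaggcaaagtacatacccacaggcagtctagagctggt
Tnfrsf1b: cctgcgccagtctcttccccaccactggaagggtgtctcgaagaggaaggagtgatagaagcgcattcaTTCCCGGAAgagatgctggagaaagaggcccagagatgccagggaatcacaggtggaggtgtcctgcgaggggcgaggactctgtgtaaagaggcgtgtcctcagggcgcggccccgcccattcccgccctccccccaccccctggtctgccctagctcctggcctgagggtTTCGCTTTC
Tnfrsf1a: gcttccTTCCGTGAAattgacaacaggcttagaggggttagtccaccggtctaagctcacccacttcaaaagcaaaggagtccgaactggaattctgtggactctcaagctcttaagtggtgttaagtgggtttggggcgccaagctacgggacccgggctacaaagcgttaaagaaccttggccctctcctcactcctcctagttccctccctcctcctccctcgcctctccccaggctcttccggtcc

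The gamma activated sequence was matched in 3 of the 9 members, from 93 to 85 bases before the start in Fas, from 181 to 173 bases in Tnfrsf1b and from 244 to 236 bases in Tnfrsf1a. The match is its own reverse complement in pattern, so each place matched on both strands and is counted as 1 site. Tnfrsf1b also ended in a match to the response element core on the opposite strand, over the last 9 bases before the start. No stretch of the 9 held the NF-kB consensus site. Of 32851 promoter stretches of the same length in the table, 7.02% held the gamma activated sequence, 7.13% the response element core and 7.25% the NF-kB consensus. These are letter matches in a short window. One of the 3 genes with a gamma activated sequence, Tnfrsf1a, did not pass the test and was lower in LIGHT tumours by its means, while the other two rose.

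The 10 members differed widely in level. In LIGHT tumours the means ran from Tnfrsf1a at 99.1 TPM through Mlkl at 63.8, Casp8 at 35.4, Tnf at 33.7, Tnfsf10 at 30.6, Tnfrsf1b at 21.9, Fas at 12.8 and Ripk3 at 8.67 to Fasl at 3.42 and Tnfrsf10b at 3.39 TPM. In control tumours the order was Tnfrsf1a at 121 TPM, Mlkl at 52.8, Tnf at 26.5, Casp8 at 25.2, Tnfrsf1b at 13.9, Tnfsf10 at 8.63, Ripk3 at 5.52, Fas at 4.81, Tnfrsf10b at 3.51 and Fasl at 1.47 TPM. Tnfrsf1a stood above 93.2% of all listed genes in LIGHT and above 94.8% in control tumours. Neighbours whose libraries overlapped in level were Casp8 with Tnf, Tnf with Tnfsf10, Tnfsf10 with Tnfrsf1b, and Fasl with Tnfrsf10b in LIGHT tumours, and Tnf with Casp8, Ripk3 with Fas, and Fas with Tnfrsf10b in control tumours. The TRAIL ligand Tnfsf10 stood below Tnfrsf1b in every control library and above it in every LIGHT library. The LIGHT ranges of the 2 genes overlapped, and in LIGHT replicate 2 they were at 22.40 and 22.19 TPM.

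**Figure D1:**
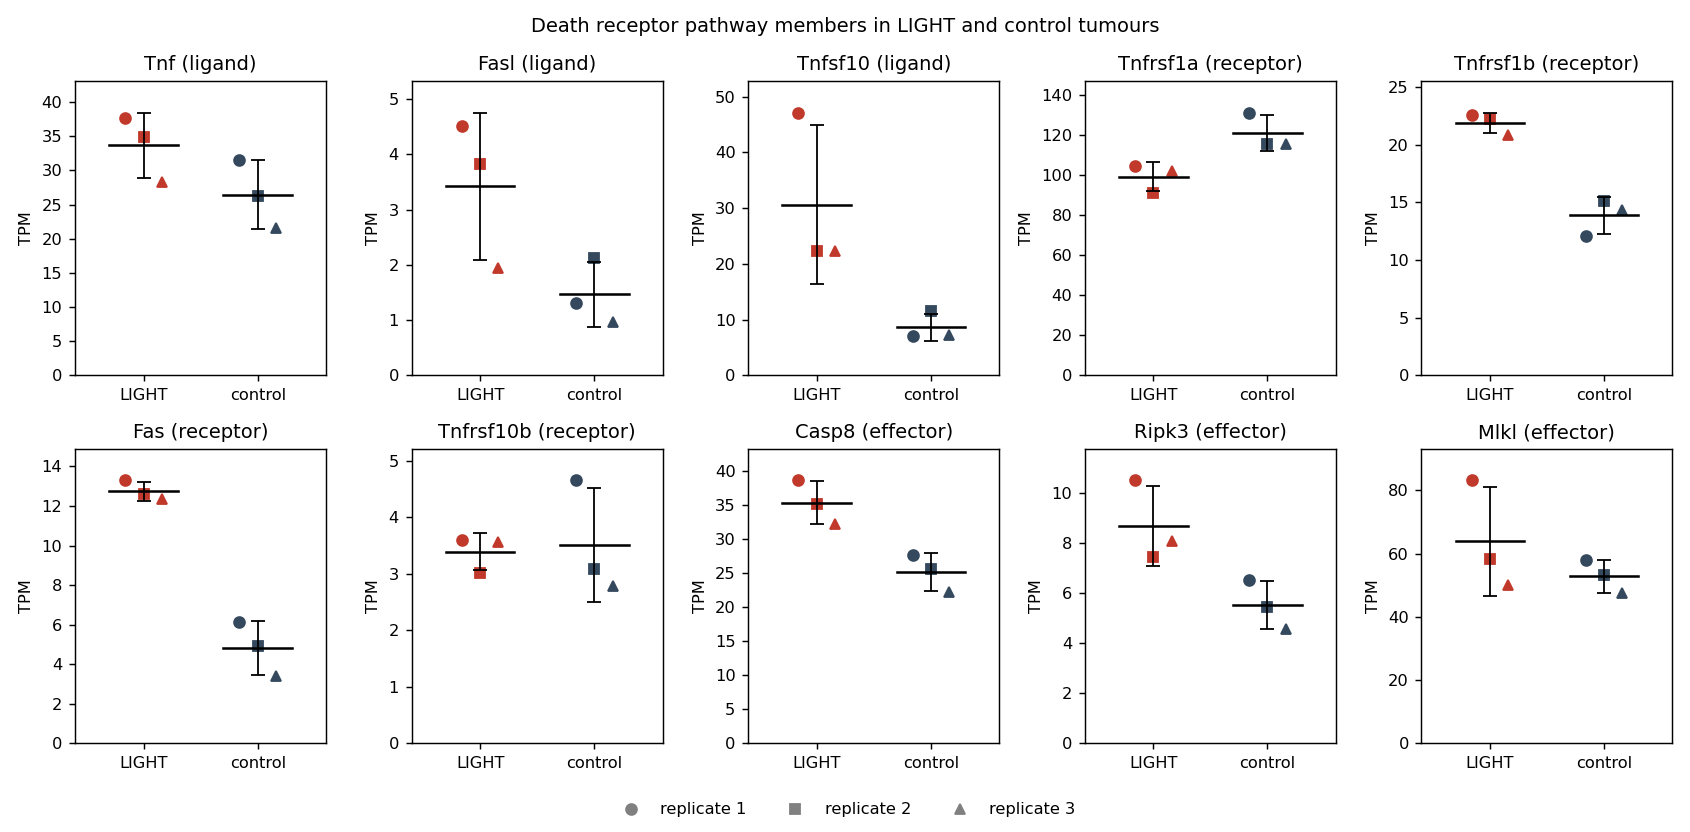
TPM of each member in each library, with LIGHT tumours left of control tumours. Symbols mark the replicate number, the long bar is the mean and the error bar the SD of 3 libraries. The 3 LIGHT libraries of Fas, at 12.4 to 13.3 TPM, lie above all control libraries, while those of Tnfrsf1a, at 90.8 to 105 TPM, lie below them.

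Of the 10 members, 5 rose in LIGHT tumours (Tnfsf10, Fas, Tnfrsf1b, Casp8 and Ripk3) and 0 fell, beside 17.7% of all tested genes called higher and 5.41% called lower. The other 5 (Tnf, Fasl, Tnfrsf1a, Tnfrsf10b and Mlkl) did not pass limma's test. At an unadjusted p under 0.05, 1 member was lower (Tnfrsf1a) and 6 were higher, Fasl being added to the 5, beside 9.9% of all tested genes lower and 26.9% higher at that threshold. The median log2 difference of the 10 was 0.52, against 0.09 over all genes tested. In 5 members the 3 LIGHT libraries lay above all control libraries and in 1, Tnfrsf1a, below them, where 29.6% of all tested genes lay wholly above and 11.6% wholly below. The scaling of the libraries matters for the whole table. With trimmed-mean (TMM) factors 1833 genes were called higher and 1673 lower, and after quantile normalization 1399 and 1811, in place of 2325 and 712. The median of all genes then moved to -0.002 and -0.04, and that of the members to 0.43 and 0.40. The same 5 members were called higher with TMM factors, and 4 of them, all but Ripk3, after quantile normalization. The count of 5 was 3 when control replicate 2, control replicate 3 or LIGHT replicate 1 was left out.

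**Figure D2:**
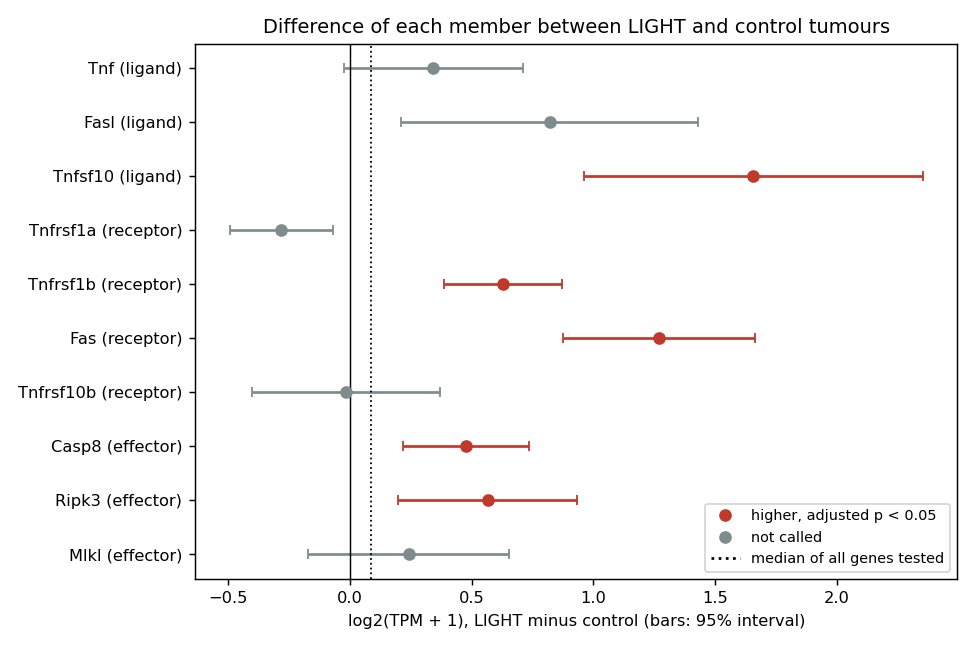
Difference of each member in log2(TPM + 1), LIGHT minus control, with limma's 95% interval. Red points passed an adjusted p of 0.05, grey points did not, and the dotted line is the median of all genes tested at 0.09. Tnfsf10 at 1.66 and Fas at 1.27 lie farthest to the right.

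The ligand that rose was Tnfsf10, which encodes TRAIL, an interferon-inducible ligand that triggers apoptosis through death domain receptors. It lies on chromosome 3 from 27317077 to 27339665. Tnfsf10 was at 47.1, 22.4 and 22.4 TPM in LIGHT tumours and at 7.14, 11.5 and 7.27 TPM in control tumours. The groups did not overlap, and LIGHT replicate 1 was about double each of the other LIGHT libraries. The mean was 3.55-fold higher (30.6 ± 14.3 TPM in LIGHT and 8.63 ± 2.46 TPM in control tumours, SD, n = 3 each). The log2 difference was 1.66 (SE 0.30, limma adjusted p = 0.00928), larger than that of 99.5% of the genes tested. The call held in all 17 other settings, with differences from 1.31 to 2.21 and 1.31 without LIGHT replicate 1.

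Fasl encodes Fas ligand, the membrane protein by which cytotoxic lymphocytes engage Fas. It lies on chromosome 1 from 161780691 to 161788495. Its levels were 4.51, 3.82 and 1.94 TPM in LIGHT tumours and 1.31, 2.12 and 0.97 TPM in control tumours. LIGHT replicate 3 fell below control replicate 2, so the groups overlapped. The log2 difference of 0.82 (SE 0.26, 95% interval 0.21 to 1.43) missed the threshold over all genes (limma adjusted p = 0.0599) and passed it without LIGHT replicate 3 (1.09, limma adjusted p = 0.0233). Tnf, the founding member of the ligand family, lies on chromosome 17 from 35199367 to 35202007. It was at 37.7, 35.0 and 28.3 TPM in LIGHT tumours and at 31.6, 26.3 and 21.5 TPM in control tumours. The lowest LIGHT library was below the highest control library. The log2 difference was 0.34 (SE 0.16, 95% interval -0.03 to 0.71, limma adjusted p = 0.161).

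The ligands were set against markers of cells known to make them, as ratios within a library, which a single scaling factor per library leaves unchanged. Fasl over the mean of the T cell markers was 0.14, 0.132 and 0.0719 in LIGHT tumours and 0.182, 0.121 and 0.117 in control tumours. These overlapped, with a log2 difference of -0.32 (SD of the log2 ratios 0.53 in LIGHT and 0.35 in control tumours), and adding the natural killer markers gave -0.33. Without LIGHT replicate 3 these differences were -0.01 and -0.02, without control replicate 1 they were -0.12 and -0.13, and without LIGHT replicate 1 they were -0.49 and -0.51. Within the control group Fasl and the T cell markers were both highest in replicate 2. Fasl thus stood 2.33-fold higher by its means, while the T cell markers summed to 294 TPM in LIGHT and 110 TPM in control tumours. Against Cd3e alone, a CD3 subunit of the T cell receptor complex, the ratio was 0.255, 0.222 and 0.12 in LIGHT tumours. These lay below all control tumours at 0.376, 0.274 and 0.32. Of the T cell markers, Cd3e had the largest fold difference of means, at 3.58, which lowers this ratio more than the other markers would.

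Tnf over the mean of the macrophage and monocyte markers was 0.286, 0.249 and 0.265 in LIGHT tumours, all below the control values of 0.491, 0.366 and 0.301. The log2 difference of this ratio was -0.51, or -0.32 without control replicate 1, and against Csf1r alone, the receptor for macrophage colony-stimulating factor, it was -0.36 with overlapping groups. Tnfsf10 over the mean of the keratinocyte and tumour cell markers was 0.0179, 0.0121 and 0.00904 in LIGHT tumours, above all control values of 0.00232, 0.00435 and 0.00271. Its log2 difference was 2.05, against 1.77 for Tnfsf10 alone on the same scale without a pseudocount. The summed marker level itself, mostly keratins, was lower in LIGHT tumours, at a mean of 23184 TPM against 27985 TPM in control tumours. Against Krt5 alone the log2 difference of Tnfsf10 was 1.76, again with all LIGHT libraries above. Tnfsf10 was not set against T cell, natural killer or macrophage markers, whose summed levels were higher in LIGHT tumours. The part of cell content in the 3 ligands' levels was not tested, and the ratios carry no test. The choice of these cell types as sources is background, not a measurement.

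**Figure D3:**
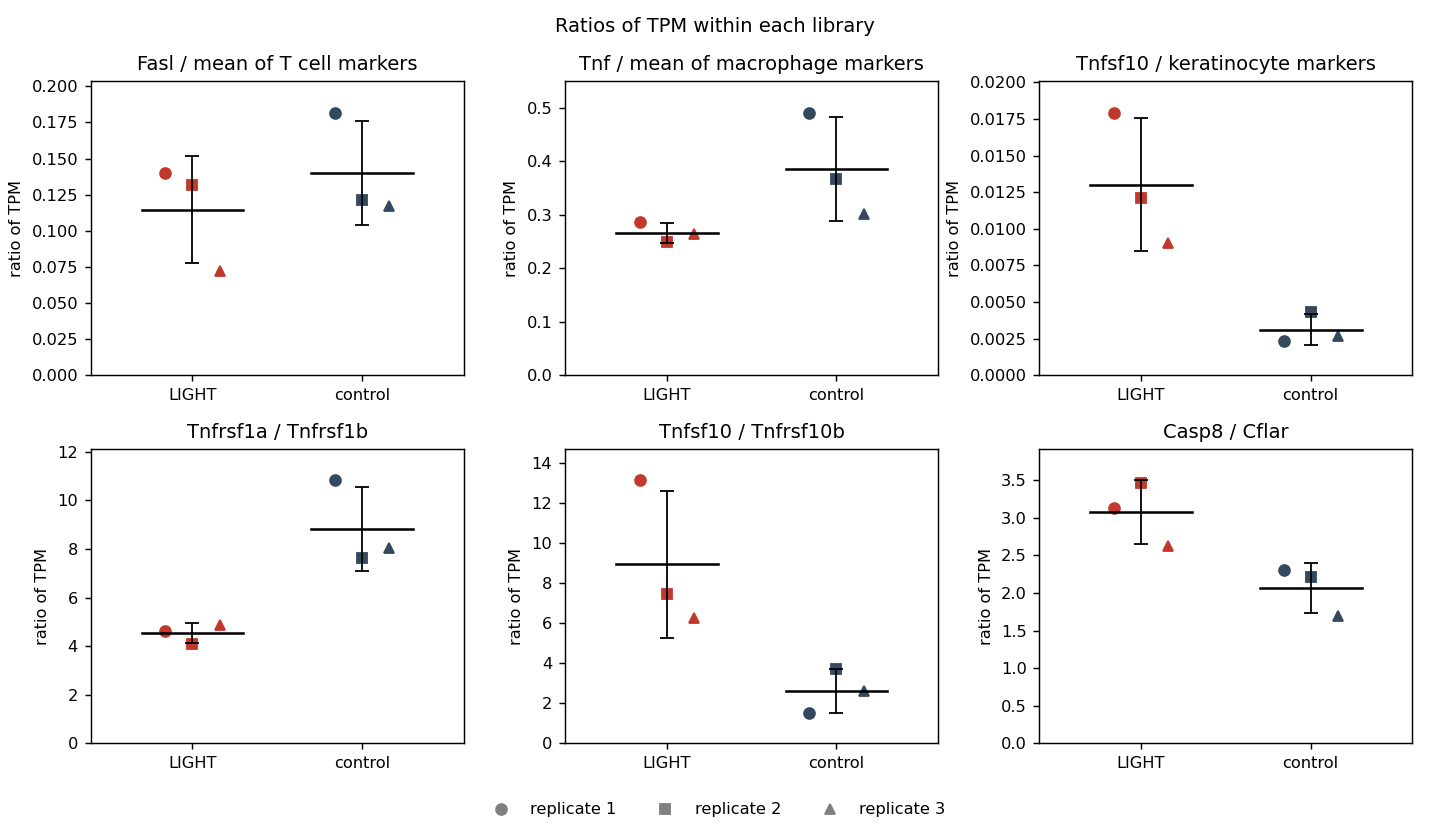
Ratios of TPM within each library (marker panels use the mean of the marker list), LIGHT tumours left of control tumours, with the mean and SD of 3 libraries and the replicate number as symbol. The ratio of Fasl to T cell markers overlaps between the groups, that of Tnf to macrophage markers is lower in all LIGHT libraries, and that of Tnfrsf1a to Tnfrsf1b is 4.09 to 4.88 in LIGHT and 7.63 to 10.8 in control tumours.

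Among the receptors, Fas rose most. Fas encodes the death receptor for Fas ligand, induced in many cells by interferon gamma and by p53, and lies on chromosome 19 from 34290647 to 34327775. It was at 13.3, 12.6 and 12.4 TPM in LIGHT tumours and at 6.11, 4.92 and 3.40 TPM in control tumours. The lowest LIGHT library was thus about double the highest control library, and the LIGHT libraries lay close together. The mean was 2.65-fold higher (12.8 ± 0.48 TPM in LIGHT and 4.81 ± 1.36 TPM in control tumours, SD, n = 3 each), with a log2 difference of 1.27 (SE 0.17, limma adjusted p = 0.00344). The call held in 16 of 17 other settings and was lost with the skeletal muscle covariate (1.11, limma adjusted p = 0.0551).

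The TNF receptors went opposite ways by their means. Tnfrsf1b, on chromosome 4 from 145212368 to 145246870, encodes TNF receptor 2, which lacks a death domain and is carried mainly by leukocytes and endothelium. It was at 22.6, 22.2 and 20.9 TPM in LIGHT tumours and at 12.1, 15.2 and 14.4 TPM in control tumours, with no overlap. It rose 1.58-fold (log2 difference 0.63, SE 0.10, limma adjusted p = 0.0069) and was called in all 17 other settings. Tnfrsf1a, on chromosome 6 from 125349723 to 125362483, encodes the broadly expressed TNF receptor 1 with its death domain. It was at 105, 90.8 and 102 TPM in LIGHT tumours and at 131, 116 and 115 TPM in control tumours. Every LIGHT library was below every control library. The log2 difference was -0.28 (SE 0.09, 95% interval -0.49 to -0.07), at a limma adjusted p of 0.0622. Tnfrsf1a was called lower with TMM factors (-0.38, limma adjusted p = 0.00947) and after quantile normalization (-0.35, limma adjusted p = 0.0215).

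The ratio of Tnfrsf1a to Tnfrsf1b, chosen after the values were seen, is unaffected by a single scaling factor per library. It was 4.63, 4.09 and 4.88 in LIGHT tumours and 10.8, 7.63 and 8.04 in control tumours, so the groups did not overlap and the mean ratio was 4.53 in LIGHT and 8.83 in control tumours. TNF receptor 1 remained the more abundant transcript in each of the 6 libraries. This ratio shows unequal change of the receptors and not which of them changed.

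Tnfrsf10b encodes the mouse death-domain receptor for TRAIL and lies on chromosome 14 from 69767472 to 69784411. It was at 3.59, 3.01 and 3.57 TPM in LIGHT tumours and at 4.65, 3.09 and 2.78 TPM in control tumours. The groups overlapped, and the log2 difference was -0.02 (SE 0.17, 95% interval -0.40 to 0.37, limma adjusted p = 0.952). Tnfsf10 over Tnfrsf10b, a ratio chosen after the values were seen, was 13.1, 7.44 and 6.26 in LIGHT tumours and 1.54, 3.71 and 2.62 in control tumours, with no overlap.

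Of the effectors, Casp8 and Ripk3 rose. Casp8 encodes caspase-8, the initiator protease of death receptor apoptosis that also restrains necroptosis, and lies on chromosome 1 from 58795233 to 58847503. It was at 38.7, 35.2 and 32.3 TPM in LIGHT tumours and at 27.6, 25.7 and 22.2 TPM in control tumours, with no overlap. It rose 1.41-fold (log2 difference 0.48, SE 0.11, limma adjusted p = 0.0212). Leaving out control replicate 2 ended the call (limma adjusted p = 0.055), as did leaving out control replicate 3 (0.0636), LIGHT replicate 1 (0.0502) and LIGHT replicate 2 (0.0556), with log2 differences of 0.39 to 0.49. It was also lost with the skeletal muscle covariate (0.43, limma adjusted p = 0.222) and the red blood cell covariate (0.53, limma adjusted p = 0.0619).

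Ripk3, the kinase that activates MLKL, lies on chromosome 14 from 55784995 to 55788857. It was at 10.5, 7.45 and 8.06 TPM in LIGHT tumours and at 6.51, 5.46 and 4.58 TPM in control tumours, again with no overlap. It rose 1.57-fold (log2 difference 0.57, SE 0.16, limma adjusted p = 0.0387). Leaving out control replicate 2, control replicate 3, LIGHT replicate 1 or LIGHT replicate 3 ended the call (log2 difference 0.44 to 0.61, limma adjusted p from 0.08 to 0.119). With all libraries kept, 3 separate settings also ended it. These were no filter on low values (limma adjusted p = 0.0826), quantile normalization (0.0665) and the skeletal muscle covariate (0.216). Mlkl, whose product permeabilises the plasma membrane in necroptosis, lies on chromosome 8 from 111311255 to 111338479. It was at 83.1, 58.2 and 50.2 TPM in LIGHT tumours and at 57.9, 53.1 and 47.5 TPM in control tumours. Apart from LIGHT replicate 1, its libraries were interleaved. The log2 difference was 0.24 (SE 0.18, 95% interval -0.17 to 0.65, limma adjusted p = 0.367), and without LIGHT replicate 1 it was 0.04.

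Exact two-sided permutation tests of single members gave p = 0.1 for the 6 whose groups did not overlap, the smallest that 20 assignments allow. The same exact tests gave p = 0.2 for Tnf and Fasl, 0.4 for Mlkl and 0.9 for Tnfrsf10b. The members also varied together between libraries of 1 group. All 10 members were highest in LIGHT replicate 1 among the LIGHT libraries, and 7 were lowest in LIGHT replicate 3. Among the controls 7 were highest in replicate 1 and the other 3, Fasl, Tnfsf10 and Tnfrsf1b, in replicate 2, while 8 were lowest in replicate 3. Of all tested genes, 55% were highest in LIGHT replicate 1 within their group and 52.7% in control replicate 1, while 23.6% were lowest in LIGHT replicate 3 and 50.5% in control replicate 3. LIGHT replicate 1 also had the lowest summed level of skeletal muscle markers in its group (3876 TPM, against 6583 and 4913 TPM in LIGHT replicates 2 and 3) and of red blood cell markers (119 TPM, against 2086 and 896 TPM). The part of this host tissue in the members' levels was not tested beyond the covariate fits given here.

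**Figure D4:**
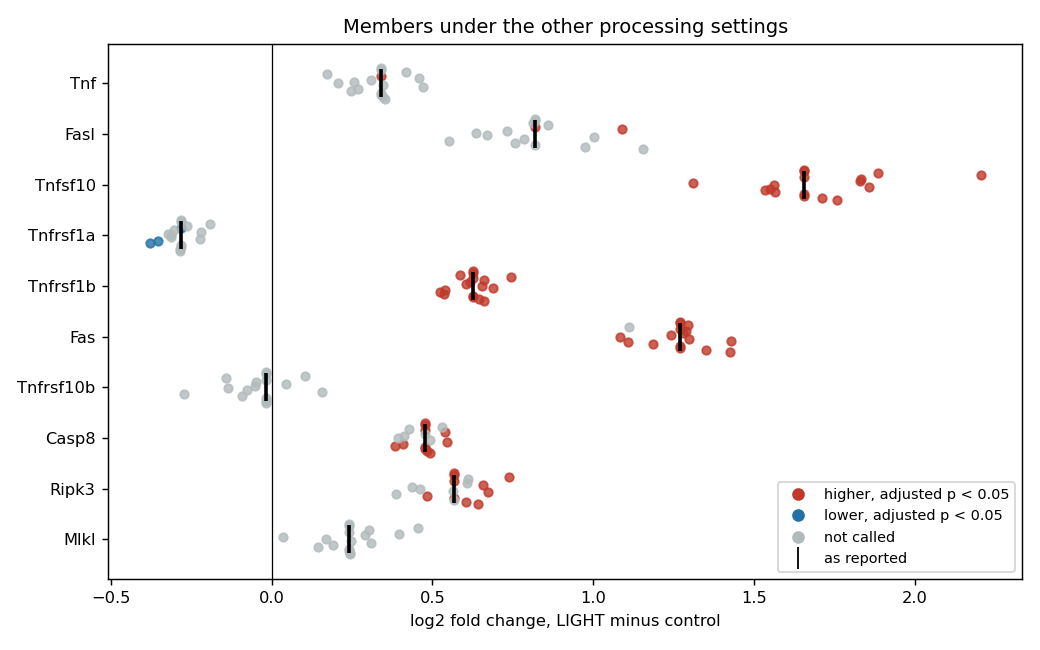
Log2 difference of each member, LIGHT minus control, as reported (black bar) and under each other processing setting in which it was tested (points, spread vertically to separate them). Red points passed an adjusted p of 0.05 as higher, blue as lower, grey did not. Tnfsf10 and Tnfrsf1b are red throughout, and Tnfrsf10b lies on both sides of 0.

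The remaining genes of the pathway were read from 6 lists of 70 genes in all, of which 69 were tested. In these lists 28 genes rose and 1 fell, so that 40.6% of those tested were called higher. Of the 28, 3 (Edar, Tnfsf15 and Mmp7) were under 1 TPM in all control libraries, so the filter let them be tested only as higher. Of the other 66 genes 25 rose, or 37.9%, beside the 17.7% of all genes. With the skeletal muscle covariate the calls of Traf2, Rbck1, Bcl2a1b, Tnfsf12 and Rhbdf2, described next, were lost. Adaptors and inhibitors of the receptor complexes gave 7 higher and 0 lower of 20, with a median log2 difference of 0.31. Birc3, a ubiquitin ligase that holds back caspase-8 activation at TNF receptor 1, was at 19.9, 18.2 and 20.5 TPM in LIGHT tumours and at 9.79, 11.3 and 10.9 TPM in control tumours. Its log2 difference was 0.82 (SE 0.10, limma adjusted p = 0.00232). Traf2, the adaptor that brings Birc3 to the receptor, rose by 0.73 (32.5 TPM in LIGHT and 19.3 TPM in control tumours), Tnip1, a ubiquitin-binding restraint on TNF signalling, by 0.61 (54.7 and 35.4 TPM), and Rbck1, a subunit of the linear ubiquitin ligase, by 0.42 (88.2 and 65.9 TPM). Of the direct death adaptors, Fadd averaged 10.0 TPM in LIGHT and 9.57 TPM in control tumours and Ripk1 19.9 and 20.4 TPM, and neither was called. Tradd was at 17.77, 19.57 and 20.74 TPM in LIGHT tumours and at 14.73, 16.91 and 13.95 TPM in control tumours. Every LIGHT library was above every control library, but Tradd narrowly missed the call (log2 difference 0.33, limma adjusted p = 0.0589).

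Cflar encodes c-FLIP, the catalytically dead relative of caspase-8 that blocks its activation. It was at 12.4, 10.2 and 12.3 TPM in LIGHT tumours and at 12.0, 11.6 and 13.1 TPM in control tumours (log2 difference -0.08, limma adjusted p = 0.652). The ratio of Casp8 to Cflar, chosen after the values were seen, was 3.13, 3.47 and 2.63 in LIGHT tumours, above all control values of 2.30, 2.21 and 1.69.

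Of 18 executioner caspases and mitochondrial apoptosis genes, 7 rose and 0 fell, at a median log2 difference of 0.19. They included genes on both sides of cell death. Bcl2a1d and Bcl2a1b, antiapoptotic BCL2 relatives of leukocytes, rose by 1.10 (30.9 TPM in LIGHT and 13.8 TPM in control tumours, limma adjusted p = 0.00141) and by 0.89 (64.0 and 33.7 TPM, limma adjusted p = 0.00359), and their near-identical sequences can share reads. Bcl2, the founding antiapoptotic member, rose by 0.64 (4.04 and 2.23 TPM). Bbc3, which encodes the proapoptotic BH3-only protein PUMA, was at 4.01, 4.33 and 4.29 TPM in LIGHT and 1.87, 2.14 and 2.07 TPM in control tumours (log2 difference 0.78, limma adjusted p = 0.00319).

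Other receptors, decoys and ligands of the family gave 4 higher and 1 lower of 11 tested, at a median log2 difference of 0.15 that was -0.11 after quantile normalization. The 4 became 1, Tnfsf12, when any LIGHT library was left out, but Edar and Tnfsf15 then failed the filter and could not be tested. Eda2r stayed over the filter and lost its call. It averaged 1.83 TPM in LIGHT tumours and was at 1.15, 0.85 and 0.59 TPM in control tumours (log2 difference 0.60, limma adjusted p = 0.0334). It was counted among the other 66 genes, although only control replicate 1 reached 1 TPM. Edar, the ectodysplasin receptor of skin appendages, was at 2.04, 1.98 and 2.47 TPM in LIGHT tumours and at 0.28, 0.59 and 0.46 TPM in control tumours (log2 difference 1.13). Tnfsf15, the ligand TL1A of death receptor 3, averaged 1.67 TPM in LIGHT and 0.42 TPM in control tumours (0.89). In the control tumours both stayed below 1 TPM throughout. Since the LIGHT libraries alone brought them over the filter, their direction was fixed by it. Tnfsf12, the ligand TWEAK, rose by 0.70 (6.47 and 3.61 TPM), while the gene of its receptor, Tnfrsf12a, was at 238 TPM in LIGHT and 295 TPM in control tumours and not called. Tnfrsf21, which encodes death receptor 6, fell (8.31 ± 0.56 TPM in LIGHT and 11.8 ± 1.59 TPM in control tumours, SD, n = 3 each, log2 difference -0.45, limma adjusted p = 0.0302), a call that was lost without any 1 of the 6 libraries (limma adjusted p from 0.0524 to 0.0819). The mouse decoy receptors for TRAIL, Tnfrsf22 and Tnfrsf23, were at 3.11 and 16.3 TPM in LIGHT tumours and 3.58 and 22.4 TPM in control tumours and were not called. Tnfrsf22 overlapped between the groups (log2 difference -0.15, limma adjusted p = 0.579). For Tnfrsf23 every LIGHT library was below every control library (-0.43, limma adjusted p = 0.0773).

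**Figure D5:**
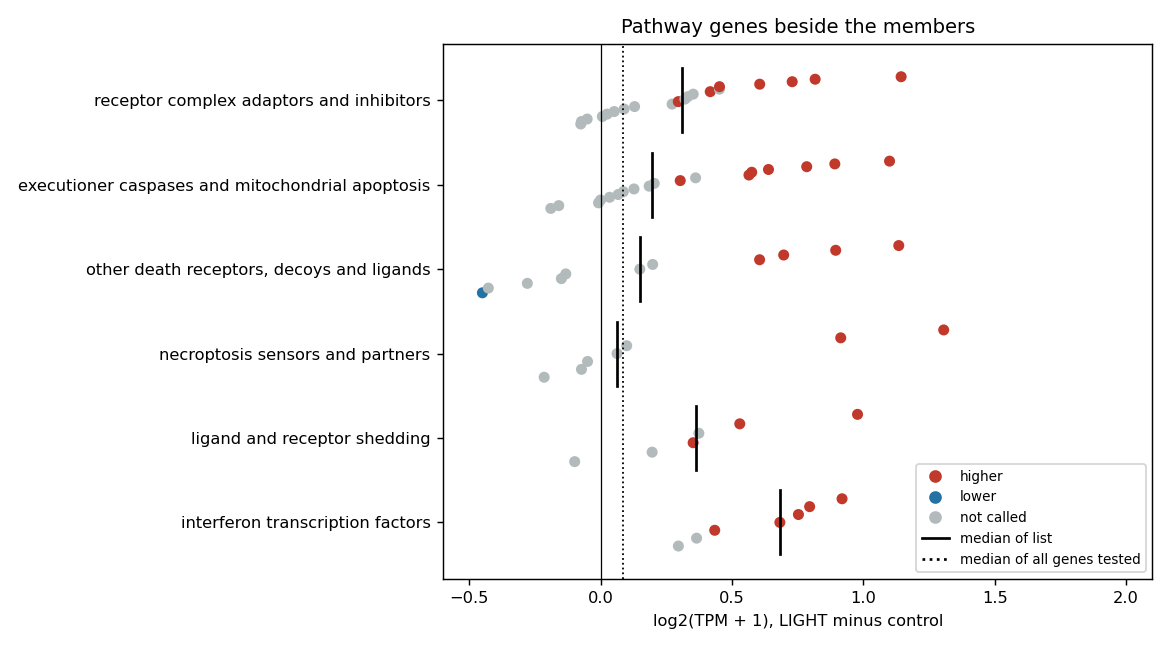
Log2 difference, LIGHT minus control, of each tested gene in 6 pathway lists. Red genes were called higher and blue lower, the black bar is the median of the list and the dotted line that of all genes tested at 0.09. The interferon transcription factors have the highest median at 0.68 and the necroptosis partners the lowest at 0.06, which turns to -0.03 with TMM factors and -0.01 after quantile normalization.

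In the necroptosis list 2 of 7 rose, and both are known to act upstream of RIPK3. The median log2 difference of the list was 0.06, and it was -0.03 with TMM factors and -0.01 after quantile normalization. Tlr3, the endosomal receptor for double-stranded RNA, was at 22.1, 12.9 and 14.1 TPM in LIGHT and 5.67, 7.16 and 4.89 TPM in control tumours (log2 difference 1.31, SE 0.21, limma adjusted p = 0.00586). Zbp1, the interferon-induced nucleic acid sensor that binds RIPK3, was at 466, 351 and 304 TPM in LIGHT and 165, 229 and 196 TPM in control tumours (0.91, SE 0.18, limma adjusted p = 0.0111). Both were called in all 17 other settings. Pgam5, a mitochondrial phosphatase, was at 27.1 TPM in LIGHT and 31.6 TPM in control tumours (-0.22) and Chmp2a, a membrane repair subunit, at 241 and 225 TPM (0.10), and neither was called. Among 6 genes of ligand and receptor shedding 3 rose, at a median of 0.36, and the count was 1 without LIGHT replicate 2 or without LIGHT replicate 3. Rhbdf2, the partner that carries the TNF-releasing protease ADAM17 to the cell surface, rose by 0.53 (22.8 TPM in LIGHT and 15.5 TPM in control tumours, limma adjusted p = 0.0067) and its relative Rhbdf1 by 0.35 (56.8 and 44.2 TPM, limma adjusted p = 0.0199). The call of Rhbdf1 was lost with TMM factors (0.26) and when control replicate 2, control replicate 3, LIGHT replicate 2 or LIGHT replicate 3 was left out (0.31 to 0.35), and with the skeletal muscle (limma adjusted p = 0.297) and red blood cell covariates (0.0957). The third was Mmp7, a metalloproteinase that can cleave Fas ligand, at 1.54 TPM in LIGHT and 0.28 TPM in control tumours (0.98). It too was over the filter in LIGHT tumours alone, so its direction was fixed and it could not be tested without a LIGHT library. The protease Adam17 itself averaged 25.6 TPM in LIGHT and 22.2 TPM in control tumours and was not called, and Timp3, its inhibitor, was at 9.16 and 7.05 TPM (0.37) and was called only without control replicate 1 (0.58, limma adjusted p = 0.043).

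Interferon transcription factors were included because Fas, Tnfsf10, Casp8 and Zbp1 are known interferon targets. Of 7, 5 rose and 0 fell, at a median log2 difference of 0.68. Irf8 was at a mean of 62.5 TPM in LIGHT and 35.9 TPM in control tumours (0.80), Irf7 at 304 and 179 TPM (0.75) and Irf1 at 351 and 219 TPM (0.68). Like Tnfsf10 and Zbp1, Irf1 was highest in LIGHT replicate 1 and control replicate 2 within the groups. So were the other factors of the list except Irf7, which was highest in control replicate 3. Among the targets, Fas and Casp8 were highest in control replicate 1, where Irf1 was lowest. Of all tested genes, 55% were highest in LIGHT replicate 1 and 29.1% in control replicate 2 within their group. A link between the factors and the targets was not tested. The count of 5 was 1 without control replicate 3, 2 without control replicate 1 or LIGHT replicate 2, and 3 without LIGHT replicate 1, and it was 1 with the skeletal muscle and 0 with the red blood cell covariate.

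For each ligand, the 3 tested genes with the most similar profile were found as the smallest root mean square difference of log2(TPM + 1), each gene centred on its own mean over the 6 libraries. For Tnfsf10 these were Gbp5, at a difference of 0.12, Ciita at 0.14 and Gm4951 at 0.19. Gbp5 was at 138, 84.3 and 85.5 TPM in LIGHT and 26.5, 39.0 and 27.4 TPM in control tumours. It shared its highest library in each group with Tnfsf10, which its choice by profile makes likely. For Fasl they were Xlr4b at 0.13, Misp at 0.13 and Cyp3a16 at 0.15. For Tnf they were Sigirr at 0.05, Popdc2 at 0.07 and Mllt11 at 0.08. With 6 libraries and 13167 genes such neighbours are a description of these profiles only.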

How the data were processed

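Tumour RNA of 3 LIGHT and 3 control libraries went through ribosomal RNA depletion, per the labels' protocols. HISAT, Bowtie2 and the mouse build GRCm38.p6 are listed, with no role or version, in the submitters' processing notes. How transcripts were quantified is not given in the sources read. The authors deposited TPM values, 1 column per library per the file headers, over 18437 genes. TPM keeps no depth, hence no counting error could be attached to a value. Columns were matched to samples through the labels' descriptions.

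The 13167 genes reaching 1 TPM in 3 libraries entered a linear model of log2(TPM + 1), run in R 4.3.3 by limma 3.58.1 with a mean-variance trend, LIGHT minus control, 2-sided, Benjamini-Hochberg over all genes tested, threshold 0.05. The fit was tested on simulated data. TMM factors were computed on the TPM by their published formula. Exact permutation tests used scipy 1.17.1 and figures matplotlib 3.10.9 (Python 3.11.15). Named genes were all 10 members, up to 4 genes of each list by smallest unadjusted p, and the 3 nearest profiles of each ligand. The comparators Fadd, Ripk1, Tradd, Cflar, Tnfrsf12a, Tnfrsf22, Tnfrsf23, Eda2r and Adam17 were named after their values were seen. The same holds for several markers of the cell type lists. A few genes of the lists are not reported here by name. Members, lists and tests were chosen with earlier results of these data known. Alternatives were pseudocounts of 0.1 and 0.5, no filter, a filter at 5 TPM, TMM and quantile scaling, each library left out, a replicate block, skeletal muscle or red blood cell marker means as covariates, no trend, and robust limma.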

Additional observations from a re-analysis of the deposited data

How the results depend on the processing

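Of the 17 other settings, each in which a member was tested kept the direction of 9 of the 10. Tnfrsf10b, not called in any, lay at -0.13 to 0.16 with 1 library left out and reversed to 0.16 without control replicate 1, to 0.05 without LIGHT replicate 2 and to 0.10 with the red blood cell covariate, and Chmp2a reversed to -0.0093 after quantile normalization. The number of members called higher was 3 to 5 when 1 library was left out and 2 with the skeletal muscle covariate, and 1 member, Tnfrsf1a, was called lower with TMM scaling, quantile normalization or the replicate block. Over all genes, 1145 to 1888 were higher and 314 to 773 lower with 1 library left out. The higher genes numbered 1399 after quantile normalization, 607 with the muscle covariate and 976 with the red blood cell covariate, and the lower genes 1673 with TMM scaling, 1811 after quantile normalization, and 91 and 207 with these covariates. With the muscle covariate, 3 adaptors and inhibitors, 3 caspase and mitochondrial genes, 2 other receptors and ligands, 1 shedding gene and 1 interferon factor were higher, and with the red blood cell covariate 4, 4 and 0 of the adaptors, the mitochondrial genes and the interferon factors. The covariates leave fewer residual degrees of freedom. Other receptors and ligands had 1 higher gene with the filter at 5 TPM and 1 to 4 without 1 library, where the low genes Edar and Tnfsf15 were not tested without a LIGHT library. Their lower genes numbered 0 without any 1 library, with no filter or with either covariate, and 2 with TMM scaling, quantile normalization or the replicate block. In the necroptosis list 1 gene was lower with TMM scaling or quantile normalization. Shedding genes gave 1 to 4 higher without 1 library, where Mmp7 was not tested without a LIGHT library. Interferon factors gave 1 to 5 without 1 library, 2 with no filter, 3 after quantile normalization and 3 with the replicate block. For these changes the cause was not tested. The ligand to marker log2 differences without 1 library were -0.49 to -0.01 for Fasl over T cell markers, -0.51 to -0.02 with natural killer markers added, -0.67 to -0.32 for Tnf and 1.79 to 2.32 for Tnfsf10. Deviations from the group means of same-numbered libraries correlated across genes at 0.37, 0.24 and 0.01, so the numbers were not taken to pair the samples. With the replicate block Tnf (limma adjusted p = 0.0297), Fasl (0.0277) and Tnfrsf1a (0.0406) passed, the last as lower. TPM keeps no depth, which limits what can be said of Fasl and Tnfrsf10b at a few TPM.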
